A study of Homo sapiens with 3 samples.

Results

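The genes described here are 10 that encode glycoproteins and small proteoglycans of the stromal matrix, namely POSTN, FN1, LUM, DCN, MGP, FBLN1, MFAP4, ELN, FBN1 and CCDC80. They were taken by symbol as rows of a merged table of unique molecular identifier (UMI) counts, and all 10 were found among its 32738 genes. The cells came from chambered cardiac organoids (CCOs) made from H7, an established human embryonic stem cell line, and 1 library each was made at D8, D14 and D21. All 3 groups had the same start, in which H7 cells were differentiated with CHIR99021, a GSK inhibitor, and then with IWP-2, an inhibitor of Wnt secretion, before they were aggregated with Matrigel, a basement membrane extract. Until D14 the CCOs were kept in plates in a cardiosphere medium (CGM) with B27, thrombin, cardiotrophin-1, EGF, FGF-2, Wnt-3A and EDN1, and from then on in RPMI/B27 in a spinner flask. The labels list no further treatment or genotype. Day, library and culture step cannot be told apart, and all values below describe these libraries of a single cell line.

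Fibronectin (FN1) is a large adhesive glycoprotein that cells bind through integrins and assemble into fibrils, and it is present in embryonic heart before most collagen is laid down. FBLN1 (fibulin-1) binds fibronectin and basement membranes, and POSTN (periostin) is a matricellular protein of valves and of fibroblasts that remodel collagen. LUM (lumican) and DCN (decorin) are small leucine-rich proteoglycans that sit on collagen fibrils and shape their assembly. FBN1 (fibrillin-1) forms the microfibrils on which elastin (ELN) is deposited, with MFAP4 as a microfibril-associated glycoprotein. MGP is a matrix protein that restrains calcification, and CCDC80 is a secreted matrix-associated protein. In the heart most such transcripts are known from fibroblasts, valve cells and vascular mural cells, while fibronectin is also made by hepatocytes.

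Of 3563 D8 barcodes, 2657 were kept as cells, of 4615 D14 barcodes, 3585, and of 9149 D21 barcodes, 1946. The kept cells held 30898727 to 50247286 UMIs per day, with medians of 12282 to 15316 UMIs per cell. At D21, 1982 barcodes were left out for their mitochondrial share alone, against 11 at D8 and 204 at D14, and 5221 had 2000 genes or fewer. Between pairs of days, 9 to 14 of the kept cells shared a barcode. The 19 clusters were made without the 10 genes, and classes were named from other markers. Cluster 3 was called fibroblast-like with 8 of 8 fibroblast markers, and 817 of its cells were of D21 and 3 of D14. Cardiomyocyte (CM)-like cells numbered 476 at D8, 1295 at D14 and 549 at D21. No class of D8 or D14 was named fibroblast-like, so at D14 the genes are described by cluster number. Levels are the summed UMIs of a group scaled to 1000000 (CPM), and ranges in parentheses are exact 95% intervals that cover counting error only. Without replicates no test was run, and "higher" or "lower" compares libraries or groups of cells. Values are not divided by transcript length, so each gene is compared with itself.

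FN1 and FBLN1, the adhesive glycoproteins, were already high at D8. FN1 stood at 1340.4 CPM at D8, 1592.2 at D14 and 753 at D21, so that D21 was the lowest day, at 0.473 times the level of D14. FBLN1 went from 160 CPM at D8 to 179 at D14 and 117 at D21. In contrast, POSTN was close to absent at D8, with 0.898 CPM (0.647 to 1.21) from 42 UMIs, and reached 65.9 CPM at D14 and 130 at D21. POSTN was therefore 73.4-fold higher at D14 than at D8, a log2 ratio of 6.20 (5.76 to 6.67), while its step from D14 to D21 was 0.98 (0.91 to 1.05).

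The promoters of POSTN and FN1 are shown because these genes started from such different levels. They are the 250 bases before the RefSeq start in GRCh38.p14, while the submitters' processing notes name hg19. Capitals mark matches on either strand to TATAAA (the TATA box), CCAAT (the CCAAT box), GGGCGG (the GC box), TGANTCA (the AP-1 motif) or GGAATG (the TEAD motif). The POSTN promoter lies at chr13:37598769-37599018 on the minus strand, and that of FN1 at chr2:215436069-215436318 on the minus strand.
POSTN: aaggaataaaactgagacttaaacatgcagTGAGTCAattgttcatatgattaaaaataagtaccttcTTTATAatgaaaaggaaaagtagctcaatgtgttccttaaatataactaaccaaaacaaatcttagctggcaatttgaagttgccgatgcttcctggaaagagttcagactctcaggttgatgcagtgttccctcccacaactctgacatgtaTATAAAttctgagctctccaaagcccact
FN1: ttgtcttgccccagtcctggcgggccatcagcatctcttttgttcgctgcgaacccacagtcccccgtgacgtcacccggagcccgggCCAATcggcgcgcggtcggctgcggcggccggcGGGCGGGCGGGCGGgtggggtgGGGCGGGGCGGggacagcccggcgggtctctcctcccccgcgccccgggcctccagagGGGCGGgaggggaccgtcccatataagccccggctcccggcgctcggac

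The stretch before POSTN had a GC content of 36.4% and 1 CG pair, and held TATAAA at 29 and 182 bases before the start and TGANTCA at 220 bases. TATAAA was found in 10.8% of the 34943 RefSeq promoters of this length and TGANTCA in 6.59%. The stretch before FN1 had a GC content of 76.4% and 32 CG pairs, against medians of 58.0% and 11 over all promoters, with 6 partly overlapping matches to GGGCGG (42.5% of promoters) and 1 to CCAAT (32% of promoters). FBLN1 (77.6% GC, 27 CG pairs) and FBN1 (69.6%, 25 CG pairs) lay nearer to FN1, and CCDC80 (42.0%, 1 CG pair) nearer to POSTN. FBLN1 held GGGCGG and FBN1 held GGAATG (11.9% of promoters), while none of these 5 motifs was found before CCDC80. These are matches of letters only. The table of promoters was searched for all 10 genes and held these 5.

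LUM and DCN, the small leucine-rich proteoglycans, were low until D14 and much higher at D21. LUM had 3.31 CPM at D8, 15.3 at D14 and 236 at D21. DCN had 0.321 CPM (0.180 to 0.529) at D8, 5.43 at D14 and 83.7 at D21. The step from D14 to D21 was a log2 ratio of 3.94 for each (3.84 to 4.05 for LUM, 3.76 to 4.13 for DCN). In RefSeq, LUM and DCN are neighbouring protein-coding genes on chromosome 12. MGP followed the same order, from 1 UMI in the whole D8 library (0.0214 CPM, 0.000541 to 0.119) to 44.2 CPM at D14 and 647 at D21. With 1 UMI at D8, the log2 ratio of MGP from D8 to D14 was 11.01 with an interval of 8.53 to 16.32.

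Of the elastic fibre genes, FBN1 stayed at 6.14 CPM at D8 and 8.36 at D14 and reached 71.6 at D21, a log2 ratio of 3.10 (2.95 to 3.25). MFAP4 was higher at each later day, with 8.75, 80.7 and 194 CPM. ELN was the exception, with 1.80 CPM at D8, 7.76 at D14 and 2.52 at D21, and its highest level was at D14. CCDC80 went from 19.4 CPM to 126 and 203. MFAP4 and CCDC80 thus had their larger step between D8 and D14, with log2 ratios of 3.21 and 2.70, and LUM and FBN1 between D14 and D21.

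Among genes at 10 CPM or more in either of the groups compared, a gene was counted as called when it differed by 2-fold or more. From D8 to D14, 5 of the 7 members at that level were higher, which were CCDC80, MGP, LUM, POSTN and MFAP4, against 8.95% of all 9105 genes. None was lower, against 1.63% of genes. From D14 to D21, 5 of 9 were higher (MGP, LUM, DCN, FBN1 and MFAP4), against 5.8% of 9333 genes. FN1 was the single member lower, against 10.1% of genes. These calls moved with the settings, as the log2 ratio of FN1 was -0.95 with a mitochondrial limit of 5% and -0.82 with TMM scaling, both short of 2-fold. With the limit at 20%, FBLN1 reached -1.22 and MFAP4 was at 0.68. POSTN passed 2-fold at 5% (1.68) and with TMM scaling (1.24). The median log2 ratio over all 10 members was 2.46 for the first step and 1.12 for the second, beside 0.08 and -0.20 over all genes at that level.

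**Figure D1:**
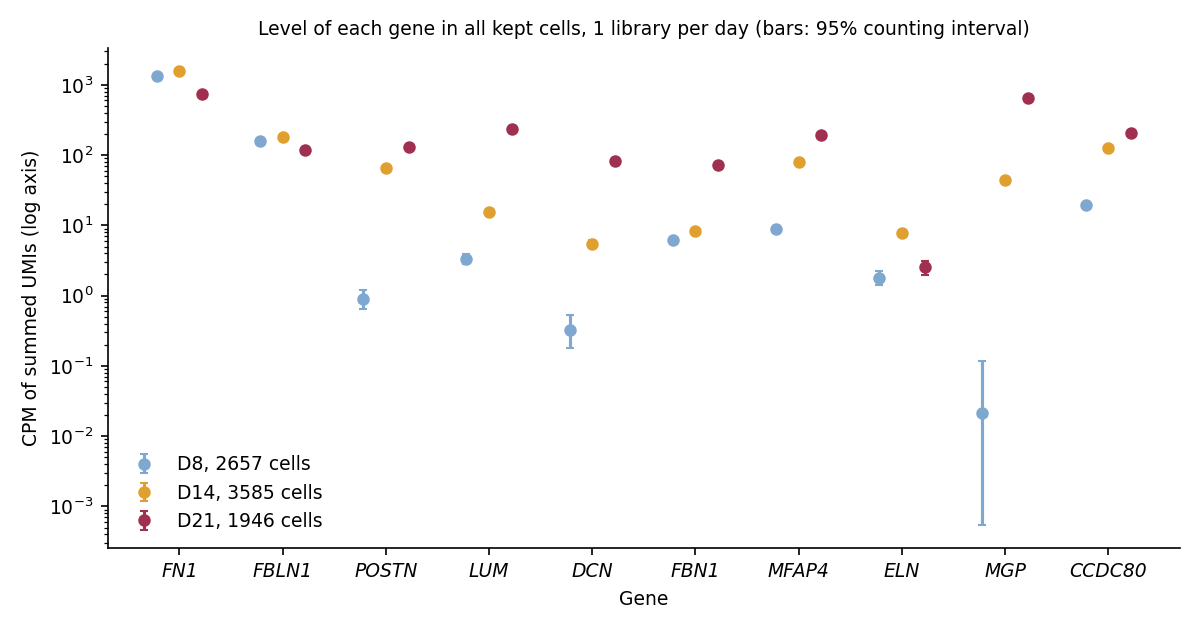
Level of each gene in all kept cells of a day, as CPM of summed UMIs on a log axis, with bars for the 95% counting interval and 1 library per day. FN1 and FBLN1 start above 100 CPM and are lowest at D21, ELN peaks at D14, and the other 7 genes are highest at D21.

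These sums mix the level per cell with how many cells of each kind were kept, and at D21 the genes moved with the mitochondrial share of the barcodes. In kept D21 cells with a share under 5%, MGP stood at 1244.8 CPM, LUM at 476 and POSTN at 236. In kept cells of 5% to under 10% they stood at 204, 57.8 and 51.6 CPM, and in the barcodes of 10% to under 20%, which were left out, at 63.8, 23.2 and 33.8 CPM. TNNT2, which encodes cardiac troponin T, ran the other way, with 636, 4158.6 and 6185.8 CPM. With the limit at 5%, the median log2 ratio of the members from D14 to D21 was 1.79, and with 20% it was 0.57. FBLN1, lower at D21 in the main count, was 0.03 higher on the log2 scale with the limit at 5%. CCDC80, higher at D21, was 0.03 lower with the limit at 20%, where its log2 ratio was -0.03.

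At D8 FN1 and FBLN1 were found in every cell group, and the other members were low in all of them. FN1 ranged from 147 CPM in ectoderm-like cells to 2127 in cluster 6, which carried 6 foregut and 5 hepatic markers and got no name. FBLN1 was between 107 and 180 CPM in all 7 groups. CCDC80 was highest in CM-like cells, at 45.5 CPM (40.9 to 50.5), against 5.47 to 26.3 in the others. MFAP4, LUM and POSTN reached at most 15.9, 9.75 and 1.78 CPM in any D8 group. In D8 cells thinned to 4000 UMIs each, 45.7% of cluster 1, the largest group, had a UMI of FBLN1, and 7.29% one of MFAP4.

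At D14 different members were highest in different clusters. Cluster 9, with 319 cells, was led by MGP, CTSB and MTUS1. It passed the marker limit for 3 of 8 fibroblast markers and 1 smooth muscle marker, but it stayed unnamed because RGS5, a mural cell marker, was among its leading genes. It had the highest level of 7 members among the D14 groups, and its MGP level was 391 CPM (373 to 409) against 0.841 to 35.1 in the others. Cluster 9 held 9.07% of the D14 UMIs but 80.2% of those of MGP, 40.9% of LUM and 37.4% of DCN. FN1, at 2737 CPM, and CCDC80, at 383, were also highest there. POSTN, at 135 CPM (124 to 146), did not differ from the 132 CPM (124 to 139) of cluster 2 beyond the counting intervals.

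Cluster 2, with 830 cells, was led by MFAP4, HOXB4 and NEFM and had 1 of 8 fibroblast markers over the limit. Its MFAP4 level of 212 CPM (203 to 222) was above the 146 CPM (135 to 158) of cluster 9, and it held 48.6% of the MFAP4 UMIs of the day. ELN was also highest in cluster 2, at 17.2 CPM (14.7 to 20.1), against 7.02 in cluster 9. MGP was at 2.69 CPM there, so the MGP and MFAP4 patterns of D14 parted between the clusters. FBN1 was highest in cluster 11, led by EBF2 and SST among others, at 28.7 CPM (23.4 to 34.9), which overlaps the 24.8 CPM (20.4 to 29.8) of cluster 9. LUM was also seen in the 77 ectoderm-like cells of D14, at 42.1 CPM (33.1 to 52.8).

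Cluster 9 was compared with all other D14 cells. It was picked after the data were seen, so the counts below are a description. Of the unnamed clusters judged at D14, it passed the limit for the most fibroblast markers, with 3 against 2 in cluster 11 and 1 in cluster 2. Members higher by 2-fold or more were 6 of 9 (CCDC80, MGP, LUM, DCN, POSTN and FBN1), against 4.01% of 9231 genes, and none was lower, against 7.05%. MGP had the widest difference, with a log2 ratio of 5.35 (5.19 to 5.50). FN1, FBLN1 and MFAP4 were higher by 0.89, 0.88 and 0.98 on the log2 scale, and ELN was at -0.16 (-0.73 to 0.37). The median was 1.54, beside 0.01 over all genes.

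At D21, 8 of the 10 members were highest in the fibroblast-like class among the 6 groups of that day, and FN1 and FBLN1 were not. POSTN was at 272 CPM (262 to 282) there, LUM at 509 (495 to 522) and DCN at 176 (168 to 184). MGP reached 1397 CPM (1375 to 1419), MFAP4 423, CCDC80 444 and FBN1 147. ELN was at 5.77 CPM (4.44 to 7.37) from 64 UMIs. The class held 35.9% of the UMIs of the day and between 73.5% and 82.1% of those of each of these 8 genes. FBLN1 stood at 206 CPM (198 to 215), beside 214 (198 to 231) in dividing cells, and the class held 63.6% of its UMIs.

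FN1 was spread more widely at D21. Cluster 10, led by SERPINA1, AMBP and AHSG, with 8 of 8 hepatic and 7 of 8 foregut markers and no name, had 1162.3 CPM (1138 to 1187). The fibroblast-like class had 927 CPM (910 to 946), dividing cells 749 and cluster 16 733. CM-like and endothelial-like cells had 129 and 159 CPM. FN1 thus had 44.3% of its UMIs in the fibroblast-like class and 37.6% in cluster 10. FBLN1 was also at 159 CPM (128 to 194) in the 38 endothelial-like cells, where LUM was at 85.3 (63.3 to 112) and FBN1 at 34.1.

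**Figure D2:**
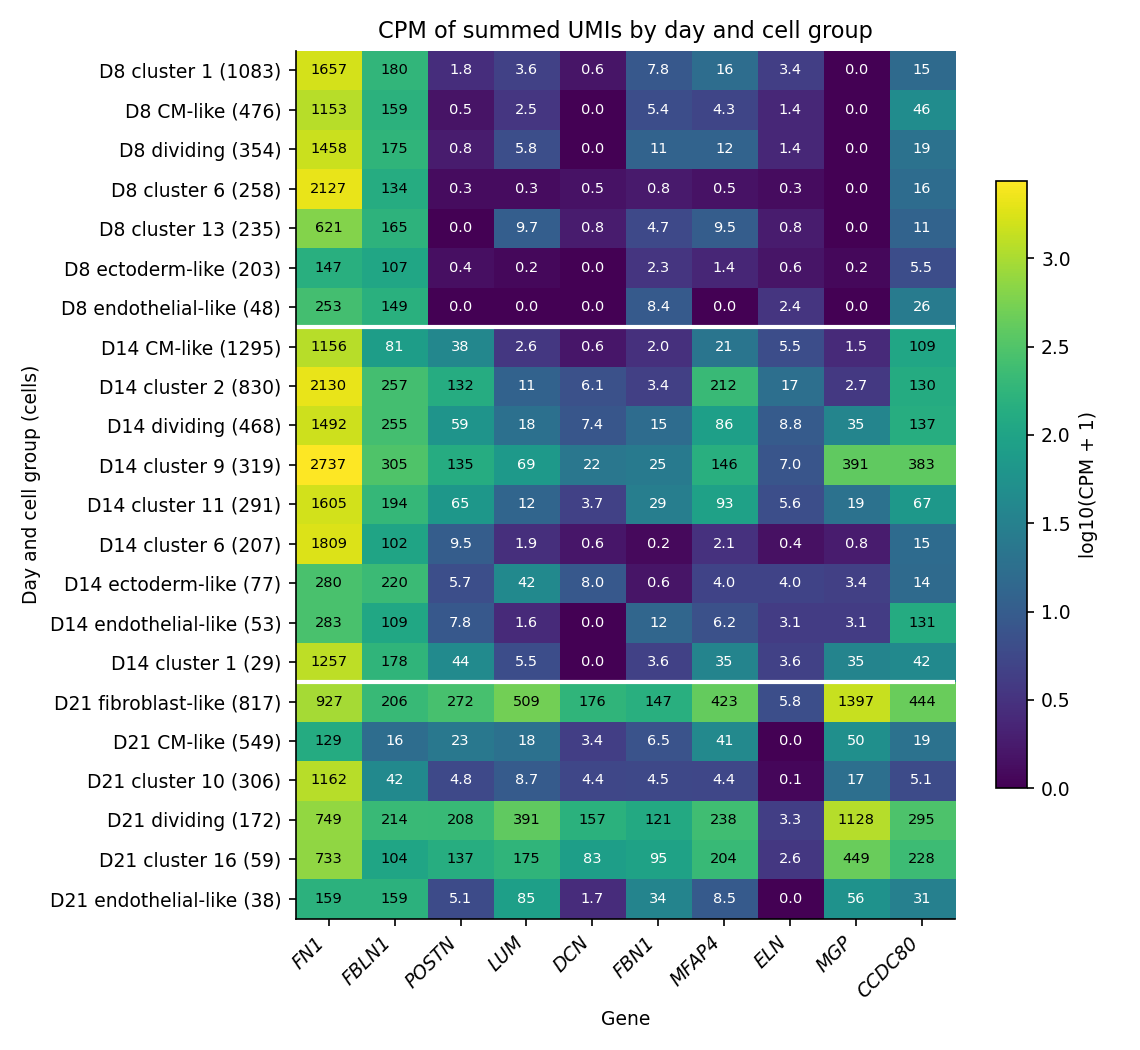
CPM of summed UMIs of each gene (columns) in each day and cell group (rows, with the number of cells). The colour is log10(CPM + 1) and the printed values are CPM. The fibroblast-like and dividing rows of D21 are alike across the genes, while at D14 MGP stands out in cluster 9 and MFAP4 in cluster 2.

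The fibroblast-like class was then set against all other D21 cells. The cells were clustered without these 10 genes, but on many genes that vary with them, so this describes the class and is no independent test of it. At 2-fold, 8 of 9 members were higher, against 9.99% of 8857 genes, and none was lower, against 12.3%. FN1 was the exception, with a log2 ratio of 0.50 (0.47 to 0.54), and ELN, below the 10 CPM limit, had 3.03 (2.18 to 3.98). The other cells included 172 dividing cells and the 59 cells of cluster 16, which carried fibroblast markers at 3530 and 2924 summed CPM, beside 4866 in the fibroblast-like class and 213 in CM-like cells. They also carried CM markers, at 7179 and 22915 summed CPM, beside 44765 in CM-like cells. The dividing cells were mainly cluster 15, with 136 cells and 2 of 8 fibroblast markers over the limit, and cluster 18. Cluster 18, with 32 cells, had 4 of 8 CM markers over the limit. Leaving out the dividing cells and cluster 16 takes cells with these transcripts from the other side and so raises the ratios. Then 8 of 9 members were higher (13.3% of 8841 genes) and none lower (13.0%). The median log2 ratio was 4.71 in place of 2.53, and that of DCN was 5.54 (5.16 to 5.94). With the mitochondrial limit at 5% the median was 0.857, and POSTN (0.84), LUM (0.87), DCN (0.70), FBN1 (0.79) and FBLN1 (0.19) were no longer 2-fold higher on the log2 scale, while MFAP4 (1.40), MGP (1.13) and CCDC80 (1.05) were. At the 5% limit the other side also changed, since 674 of the 895 D21 cells were fibroblast-like. The rest included 111 dividing, 40 hepatic endoderm-like and 36 CM-like cells. With 20% the median was 3.18.

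The larger dividing cluster of D21, with 136 cells, had nearly the same levels as the fibroblast-like class. No member of 9 differed by 2-fold, against 6.48% of 8475 genes higher and 1.35% lower. The log2 ratio was 0.00 (-0.05 to 0.05) for MGP, 0.01 (-0.16 to 0.18) for FBN1 and -0.08 (-0.17 to 0.01) for LUM. MFAP4 and CCDC80 were lower in the dividing cluster, at -0.62 (-0.73 to -0.50) and -0.31 (-0.41 to -0.20), and FBLN1 and DCN were higher, at 0.28 (0.14 to 0.41) and 0.15 (0.00 to 0.30). Set against this cluster alone, DCN (195 CPM), MGP (1397) and FBN1 (148) of the 8 members were not highest in the fibroblast-like class, and the pooled dividing cells lie lower because they include cluster 18, where MGP was at 65.1 CPM.

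Free RNA in droplets can give UMIs in cells that do not make a gene, so each share is set beside that of cluster 10, an epithelial group with hepatic genes. After thinning to 4000 UMIs, MGP had a UMI in 53.5% of fibroblast-like cells, 14.9% (12.1 to 18.2) of CM-like cells and 4.25% (2.28 to 7.16) of cluster 10. Unthinned, these shares were 68.1%, 34.6% and 30.1%, with median depths of 12661, 12773 and 21930 UMIs. MFAP4 gave 62.7%, 12.2% and 1.63% after thinning, LUM 53.5%, 7.65% and 2.94%, and CCDC80 59.4%, 5.65% and 1.31%. Thinning removes more of the UMIs of the deeper cluster 10, and unthinned the shares of LUM were 15.1% and 11.4%, so no order between CM-like cells and cluster 10 is read from them. DCN, at 1.82% (0.877 to 3.32) of CM-like cells and 0.654% (0.0793 to 2.34) of cluster 10, was not distinguishable from cluster 10 after thinning, nor was FBN1, at 2.19% and 0.654%. Cluster 10 serves as a background for neither FN1, with a UMI in 89.9% of its cells, nor FBLN1, with 16.3%.

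The level in CM-like cells of D21 was 3.60% (3.24 to 3.99) of that in the fibroblast-like class for MGP, 3.59% for LUM and 4.30% (3.61 to 5.08) for CCDC80. FBN1 was at 4.42% (3.25 to 5.89), so these genes stood in nearly the same proportion in both classes. The level was 7.72% (6.36 to 9.30) for FBLN1, 8.36% (7.11 to 9.77) for POSTN, 9.65% (8.56 to 10.8) for MFAP4 and 13.9% for FN1, which lie above that proportion. For DCN it was 1.92% (1.24 to 2.85), which lies below it. Among the CM-like cells of D21, 496 were in cluster 4 and 50 in cluster 17, whose median depth was 8172 UMIs. LUM was at 8.29 CPM in cluster 4 and 161 in cluster 17, and MGP at 43.9 and 142. CCDC80 was at 14.5 and 82.3 CPM, and FBN1 at 3.49 and 49.4, so the pooled proportion mixes unlike clusters. The summed level of the 8 fibroblast markers in CM-like cells was 4.37% of that in the fibroblast-like class, and that of the 8 CM markers in the fibroblast-like class was 5.26% of that in CM-like cells. The part of mixed droplets or free RNA in these levels was not tested. ELN had 0 of 7398081 UMIs in CM-like cells, and 3 counts would have been 0.406 CPM.

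Cells of the fibroblast-like class carried several of the genes at once. After thinning, the median cell of the class had a UMI of 5 of the 10 genes, and 59.7% of its cells had 5 or more. In dividing cells of D21 the median was also 5, and in cluster 16 it was 4. CM-like cells and cluster 10 had a median of 1, and 0.911% and 0.327% of their cells had 5 or more. At D14 the median was 3 in cluster 9 and in cluster 2. At D8 no cell of 2657 had more than 4, and 44.8% had exactly 1. FN1 and FBLN1 were broad at every day. Without them, 3 or more of the other 8 genes were seen in 76.1% of fibroblast-like cells, 58.7% of dividing cells and 44.1% of cluster 16 at D21. At D14 they were seen in 28.2% of cluster 9 and 9.28% of cluster 2, and at D8 in 1 cell.

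**Figure D3:**
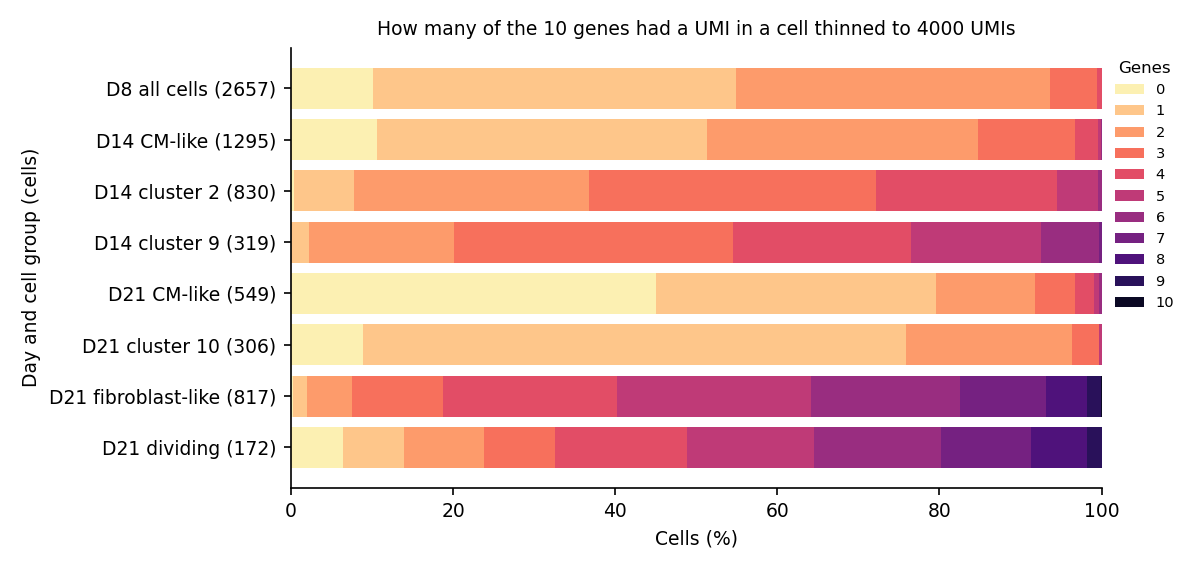
Share of cells (%) by how many of the 10 genes had a UMI after thinning to 4000 UMIs per cell, for 8 groups with their numbers of cells. Each bar is stacked to 100% and darker colours stand for more genes. The fibroblast-like and dividing bars of D21 hold most of the dark colours, with medians of 5 genes, and the CM-like row of D21 reaches at most 6 genes.

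The D21 class was compared with cluster 9 of D14, the D14 group with the highest summed CPM of these genes, in a comparison added after the data were seen. Cluster 2 held more of their UMIs in total, 26957 against 19238. Members higher by 2-fold or more were 6 of 9 (MGP, LUM, DCN, POSTN, FBN1 and MFAP4), against 4.97% of 8851 genes, and FN1 alone was lower, against 9.93%. LUM, DCN and FBN1 had log2 ratios of 2.88 (2.72 to 3.05), 2.97 (2.68 to 3.27) and 2.56 (2.29 to 2.85). MGP was 1.84 higher, MFAP4 1.53 and POSTN 1.01 (0.89 to 1.14), and CCDC80 was at 0.21 (0.13 to 0.29). FN1 was at -1.56 (-1.60 to -1.52) and FBLN1 at -0.56 (-0.66 to -0.47). ELN, at -0.28 (-0.92 to 0.38), did not differ beyond counting error. These values depend on which D14 cells are taken, since over the alternatives CCDC80 ran from 0.18 to 1.23 and MGP from 1.69 to 3.71, both highest at resolution 0.4 or with a gate on COL1A2 and COL3A1. The median was 1.27, beside -0.18 over all genes.

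CM-like cells took another course. Between D8 and D14, POSTN went from 0.519 CPM (4 UMIs) to 38.4 and MFAP4 from 4.28 to 20.9, and CCDC80 from 45.5 to 109, and these 3 of 5 members were higher by 2-fold, against 10.2% of 9064 genes. None was lower by 2-fold, against 1.97%. FBLN1 fell just short of that, from 159 to 81.2 CPM, a log2 ratio of -0.97 (-1.08 to -0.86). FBN1, below the 10 CPM limit, went from 5.45 to 2.03 CPM, a log2 ratio of -1.43 (-2.12 to -0.74). FN1 did not differ between D8 and D14, with 1153 and 1156 CPM and a log2 ratio of 0.00 (-0.03 to 0.04). Between D14 and D21, FN1 went from 1156 to 129 CPM, a log2 ratio of -3.17 (-3.26 to -3.08), and CCDC80 from 109 to 19.1, a log2 ratio of -2.51 (-2.77 to -2.26). FBLN1 was at 81.2 CPM at D14 and lower at D21 (log2 ratio -2.35, -2.63 to -2.08). These 3 of 7 members were lower by 2-fold, against 14.9% of 9179 genes. With the mitochondrial limit at 20%, CM-like cells numbered 1336 at D14 and 1636 at D21, in place of 1295 and 549. The comparisons of CM-like cells were not repeated with other limits.

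Of the 7 members at 10 CPM or more, MGP and LUM were the 2 that were higher by 2-fold in CM-like cells of D21 than of D14, against 5.2% of genes. Below that limit, DCN was at 0.596 CPM and then 3.38, and FBN1 at 2.03 and then 6.49. MGP went from 1.55 CPM (1.01 to 2.27) to 50.3 and LUM from 2.62 to 18.2. Of the 135 LUM UMIs at D21, 78 were in the 50 cells of cluster 17. In the 496 cells of cluster 4, LUM was at 8.29 CPM, below the limit, and MGP at 43.9. Cluster 17 also held 17 of the 25 DCN UMIs and 24 of the 48 FBN1 UMIs. In the same D21 library MGP and LUM stood at 3.60% and 3.59% of their levels in the fibroblast-like class. The part of mixed droplets or free RNA in this was not tested. POSTN in CM-like cells went from 38.4 to 22.7 CPM, a log2 ratio of -0.76 (-1.01 to -0.51), while it was higher in the fibroblast-like class than in cluster 9. ELN went from 5.54 CPM (93 UMIs) to 0, and the counting interval of its log2 ratio had an upper limit of -3.45. Its D14 level was 13.7-fold above the limit of 3 counts in the D21 group, a value that leaves out the counting error at D14.

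**Figure D4:**
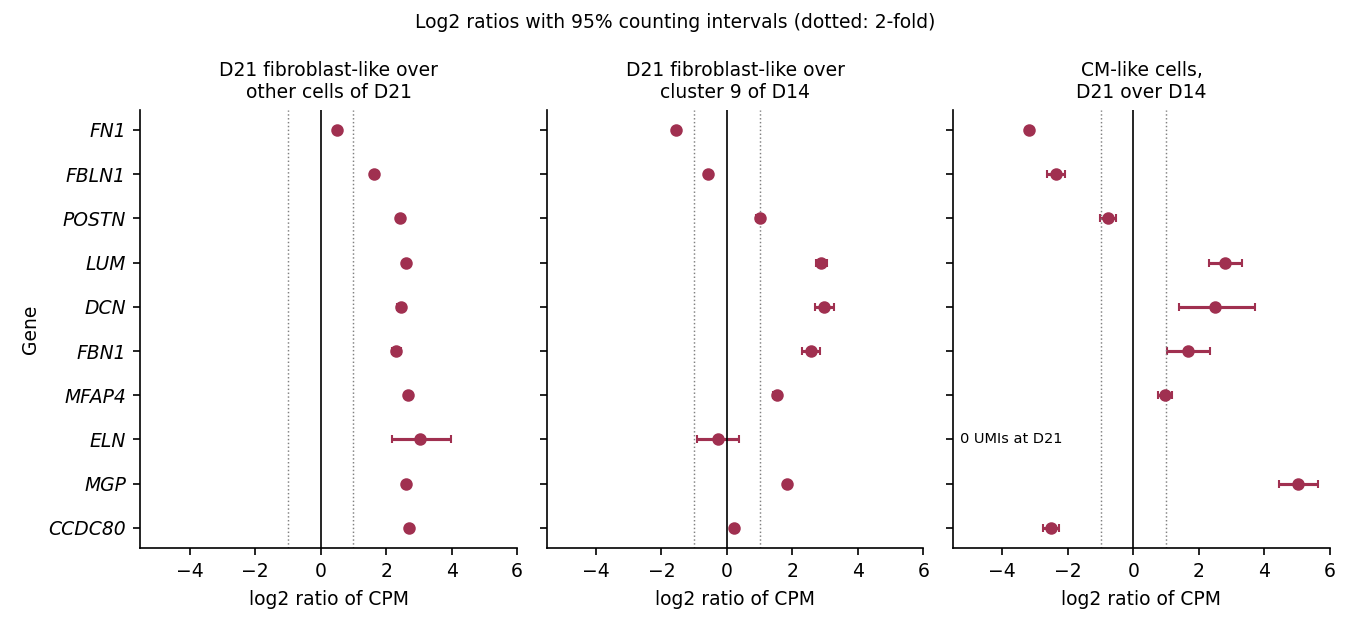
Log2 ratios of CPM with 95% counting intervals for 3 comparisons, with dotted lines at 2-fold. FN1 lies left of 0 in both D21 over D14 panels, LUM, DCN, FBN1, MFAP4 and MGP lie right of it in all 3, and POSTN and CCDC80 lie on opposite sides in stroma and CM-like cells.

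The fibroblast-like class was split again, without the 10 genes, into 7 subclusters of 82 to 143 cells. MGP varied most of the 9 genes other than ELN, from 296 CPM (269 to 325) in subcluster 2 to 4990.1 (4867 to 5115) in subcluster 6, a 16.9-fold range. Subcluster 6 was led by SLN, CTGF, PDLIM3, TAGLN and AGT. CCDC80 spanned 10.1-fold, from 71.1 CPM (59.1 to 84.9) in subcluster 1, led by SCG2 and NGFR among others, to 719 (683 to 756) in subcluster 3, led by CRHBP, NTS and TFPI2. LUM was also highest in subcluster 3, at 833 CPM, but was at 696 in subcluster 1, where CCDC80 was lowest.

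Subcluster 5, with 86 cells led by CLU, COL9A3, FMOD and CITED1, had the highest levels of 5 members. POSTN was at 608 CPM there (567 to 650), DCN at 364, FBN1 at 219, FBLN1 at 316 and MFAP4 at 659. The lowest levels of these genes were 129 CPM for POSTN and 56.0 for FBN1, both in subcluster 1, 101 for DCN in subcluster 6, and 93.2 for FBLN1 and 207 for MFAP4, both in subcluster 4. FN1 varied least, by 1.35-fold, from 800 to 1077 CPM. ELN was highest in subcluster 2, at 17.0 CPM from 25 UMIs, where MGP was lowest. Median depth ran from 10064 to 16060 UMIs among the subclusters, and the median mitochondrial share from 3.25% to 4.18%. TNNT2 was at 769 CPM in subcluster 2 and at 345 to 474 in the others, and its part in these differences was not tested.

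**Figure D5:**
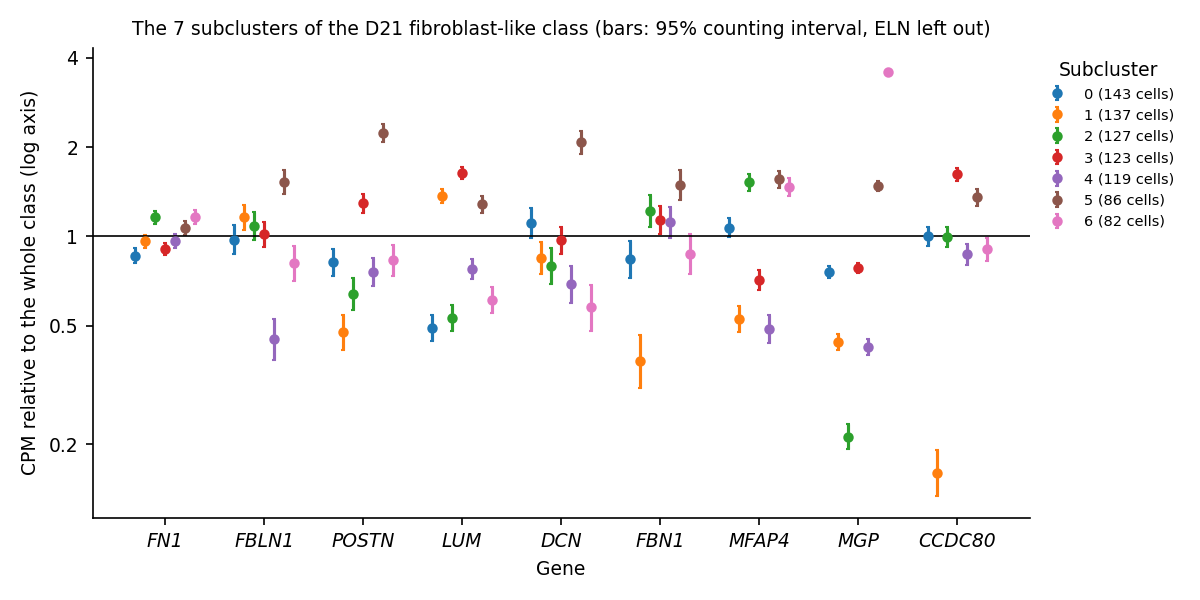
CPM of 9 genes in the 7 subclusters of the D21 fibroblast-like class, relative to the whole class (log axis, 1 is the level of the class), with 95% counting intervals. FN1 stays close to 1, MGP runs furthest above it in subcluster 6 and CCDC80 furthest below it in subcluster 1. ELN, with 64 UMIs in the class, is left out.

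Other genes of the matrix gave the setting for the members. Of 15 elastic fibre and microfibril genes, 12 were at 10 CPM or more in the comparison of the fibroblast-like class with other D21 cells. Of these, 8 were higher by 2-fold and 1 lower, against 9.99% and 12.3% of all genes. Their median log2 ratio was 2.05, beside 0.06 over all genes. EMILIN1, a glycoprotein of the elastin and microfibril interface, was at 393 against 79.5 CPM, and MFAP2, a microfibril glycoprotein, at 276 against 57.2. LOX, which cross-links elastin and collagen, was at 10.2 against 1.72 CPM. The exception was FBN2, the fibrillin of embryonic microfibrils, at 26.6 CPM against 145 in the other cells, opposite to FBN1. FBN2 stood instead at 325 CPM in CM-like cells of D14 and 318 in those of D21, where FBN1 was at 2.03 and 6.49.

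Of 10 further small leucine-rich proteoglycans, 3 reached 10 CPM, and all 3 were higher by 2-fold in the fibroblast-like class, against 9.99% of all genes. BGN (biglycan) was at 102 against 20.8 CPM, ASPN (asporin) at 41.4 against 3.74 and FMOD (fibromodulin) at 30.3 against 8.74. ASPN had been at 0.0597 CPM, from 3 UMIs, in all of D14, and 0.0214, from 1 UMI, in all of D8, so it was highest at D21, as LUM and DCN were. Of 13 matricellular and adhesive genes, 5 of 9 were higher and 1 lower, with a median of 1.10, against 9.99% and 12.3% of all genes. SPARC, a collagen-binding matricellular protein, was at 864 against 159 CPM and TNC (tenascin-C) at 35.1 against 6.56, while VTN (vitronectin), which is made by hepatocytes, was at 19.6 against 763.

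Of 7 integrin genes for fibronectin receptors, 5 were at 10 CPM or more 1 was higher by 2-fold and none lower, with a median of 0.67, against 9.99% and 12.3% of all genes, so that the count is near that share. This was ITGA8, the alpha 8 chain, at 224 CPM against 44.7, which had been at 30.3 CPM in cluster 9 of D14. ITGAV, the alpha V chain, had been at 346 CPM in cluster 9 and was at 98.1 in the fibroblast-like class, a log2 ratio of -1.82 (-1.93 to -1.71). In that comparison 2 of 5 integrin genes were higher by 2-fold and 1 lower, against 4.97% and 9.93% of genes. The median of the integrin genes was 0.36 there. Of 9 matrix proteases and inhibitors, 7 of 8 were higher in the fibroblast-like class than in other D21 cells, against 9.99% of all genes. The median was 1.90. Among them were TIMP1, a metalloprotease inhibitor, at 2178.8 against 495 CPM, and MMP2, a gelatinase, at 222 against 52.6. In CM-like cells from D14 to D21, 2 of the 8 at 10 CPM or more were lower, which were MMP14 and PCOLCE, and none was higher, against 14.9% and 5.2% of all genes.

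Across the 25 groups of cells over the 3 days, the levels of the members were compared on the log2(CPM + 10) scale by Pearson's correlation, as a description, since groups of a day share a library. POSTN and MFAP4 were most alike (r = 0.94), followed by LUM and DCN (r = 0.93) and LUM and MGP (r = 0.92). FN1 was least like the rest, with a correlation of 0.27 with the mean of the other 9, against 0.90 for POSTN and 0.89 for MFAP4. ELN, at 0.49, and FBLN1, at 0.39, also stood apart. Among 5607 genes that reached 50 CPM in a group and were neither members nor on the matrix gene lists, the pattern closest to POSTN was that of CXCL12 (r = 0.94). TAC1 was closest to DCN (r = 0.96) and MGP (r = 0.94). COLEC11 was closest to LUM (r = 0.93), CXCL12 to MFAP4 (r = 0.93), MIR503HG to FBN1 (r = 0.90), PDLIM3 to CCDC80 (r = 0.89), SRSF9 to FBLN1 (r = 0.87), GAS1 to ELN (r = 0.84) and TTC3 to FN1 (r = 0.79). LRRC17 (r = 0.94) and PDGFRB (r = 0.93) lay closest to the mean of the members, and PDGFRB is 1 of the markers that named the class.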

How the data were processed

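Droplet single-cell RNA-seq (Chromium 3' v2) libraries of D8, D14 and D21 CCOs were given by the authors as 1 deposited merged table of UMI counts, not normalized, per gene and barcode. The submitters' processing notes name hg19, Cell Ranger and Seurat 3.2.1, with no role given. The sample of a barcode was read from its suffix, and no column was left unused.

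A barcode was kept when its gene number lay above 2000 and below 7500 and its share of mitochondrial UMIs (13 genes) below 10%, which left 8188 of 17327, with 4007 to 95021 UMIs each, as were the 20394 genes with a UMI in 10 or more barcodes. Cells of all days were clustered together in Seurat 5.3.0 (R 4.3.3), without integration, on 1970 variable genes after 30 members and matrix list genes were left out, with 20 principal components and resolution 0.8. Of 19 clusters, 11 were named. A name needed 3 of 8 markers at 2-fold above the other cells of the day with 10 CPM added, at least 2 markers more than any other class, and 20 cells. No name was given where markers of a different class were more frequent among the 10 leading genes, or where the median UMI count was low and no marker led. Scrublet (scanpy 1.11.5) called 0.0279% to 0.360% of cells, so it did not work here, and doublets were kept.

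UMIs were summed per group and scaled to CPM. Intervals are exact Poisson for levels, exact binomial (Clopper-Pearson) for shares and exact conditional for ratios (scipy 1.17.1), at 95%. PCR duplicates are removed by UMIs, and the intervals leave out the spread between cultures. With 1 library per day no test was made. Shares were taken after thinning each cell to 4000 UMIs. The calculations were tested on simulated data. Alternatives were mitochondrial limits, doublet removal, TMM (edgeR 4.0.16) and median-of-ratios scaling, equal weight per cell, clustering settings, a COL1A2 and COL3A1 gate and background subtraction.

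The genes named in the text are the 10 members, genes of 5 fixed matrix lists past 2-fold and the genes most like each member across groups. ITGAV, FBN2 in CM-like cells and TNNT2 were named after their values were seen. The members and lists were chosen with earlier results of these data known. The planned comparisons of a D14 fibroblast-like class could not be made, because no D14 cluster got that name, and cluster 9 was used instead.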

Additional observations from a re-analysis of the deposited data

Results flagged for a closer look

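POSTN and CCDC80 had opposite signs in the D21 fibroblast-like class over cluster 9 of D14 and in CM-like cells of D21 over D14. The first of these compares different groups of cells and does not follow a single class over time. POSTN was higher by 1.01 on the log2 scale in the D21 fibroblast-like class than in cluster 9 of D14, while its log2 ratio in CM-like cells was -0.76. CCDC80 had a log2 ratio of 0.21 in the first comparison and of -2.51 in CM-like cells. The difference between the cell groups was not tested, since each day had 1 library, and cluster 9 was chosen after the data were seen.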

How the results depend on the processing

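The values here are medians of the log2 ratios over the members. For D14 over D8 in all cells the median was 2.46 and ran from 2.35 to 2.59 over 6 alternatives. For D21 over D14 in all cells (1.12) it was 1.79 with a mitochondrial limit of 5%, 0.569 with 20%, 1.38 with TMM scaling and 1.41 with median-of-ratios scaling. For the fibroblast-like class over other D21 cells (2.53) it was 0.857 with 5%, 3.18 with 20%, 2.73 at resolution 0.4, 2.23 with the COL1A2 and COL3A1 gate, 2.75 with background subtracted (9 members) and 4.71 without dividing cells and cluster 16. For cluster 9 over other D14 cells (1.54) it was 1.12 with 5%, 1.24 with 20%, 1.13 with more variable genes, 1.11 with the gate and 1.92 with background subtracted. In other clusterings, cluster 9 stands here and below for the D14 cluster that held most of its cells. That cluster had 465 cells with 5%, 570 with 20%, 543 with more variable genes and 1388 at resolution 0.4, in place of 319. For the D21 class over cluster 9 (1.27) it was 1.48 with 5%, 1.43 with 20%, 1.48 with more variable genes, 1.53 with TMM, 1.55 with median-of-ratios scaling, 1.44 with the gate and 1.54 with background subtracted. The cause was not tested. The comparisons with cluster 9, and the one without dividing cells and cluster 16, were added after seeing the data. The number of members highest in the D21 class was 8 and ran from 6 to 9. A D14 class was named fibroblast-like under 4 alternatives, with 466 cells (5%), 574 (20%), 1391 (resolution 0.4) and 546 (more variable genes). Of 487 values of single members, 265 stayed within the counting interval of the main value and 222 did not; changes of sign were seen for ELN in cluster 9 and for FBLN1 and CCDC80 in D21 over D14. No paired analysis was possible because each day had 1 library.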
